A study of Drosophila melanogaster with 2 samples.

Results

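The Rab genes of Drosophila melanogaster were examined for binding of the circadian transcription factor Clock (Clk) near their start sites. Members were taken by symbol, as protein-coding genes named Rab or RabX followed by a number in the Ensembl BDGP6.54 annotation, and 36 of 13945 protein-coding genes on the 6 chromosome arms with peaks were found. By name and background knowledge 33 of them encode Rab GTPases. The other 3, Rab3-GEF, Rab3-GAP and Rab3GAP1, are named for regulators of Rab3 and are described apart from the GTPases. A region was assigned to a gene when its summit lay within 1 kb of any annotated transcript start of that gene. This rule uses symbols and no measured value, but the members and the other gene lists were chosen with earlier results of these data known.

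The flies were adult males, of unknown age, from the strain Clk-GFP, a transgenic line that stably expresses Clk with green fluorescent protein (GFP) fused to its C-terminus, written Clk-eGFP in the sample descriptions. Chromatin of whole animals was sonicated, immunoprecipitated and sequenced (ChIP-seq). The descriptions name an anti-GFP antibody, which would recover the fusion protein, while the antibody label reads Clk, and the labels do not settle which applies. The series had 1 group with 2 biological replicates and no second genotype, treatment or time, so every value below describes this line alone. Whether native Clk was also present, and the time of day, were not stated in the labels. A whole-fly preparation mixes all tissues, and binding in few cells and weak binding in many cannot be told apart.

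Rab proteins are small GTPases that mark the membranes of the cell. In the GTP-bound form a Rab recruits effectors such as tethers and motors. Exchange factors load a Rab with GTP, GTPase-activating proteins switch it off, and escort and dissociation-inhibitor proteins carry its lipid-anchored form between membrane and cytosol. Each Rab has its own compartments, from the Golgi to endosomes, lysosomes and secretory vesicles. Clk, of the basic helix-loop-helix class, pairs with Cycle on DNA, and CACGTG is the textbook E-box of that pair.

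Peaks are called reproducible here when the authors kept them after thresholding on the irreproducible discovery rate (IDR). Rab genes had 11 of these 2464 peaks within 1 kb of a start site, at 10 genes. The reference sequences below come from 6 of these peaks. Shown are the strong peaks of Rab5, Rab8 and Rab26, with the weaker peak of Rab5, the only gene with several, and the peaks of Rab7, for its short shared promoter like that of Rab8, and of Rab11, the weakest. They are the plus strand of the RefSeq Release 6 assembly (dm6), within 100 bp of the summit and cut to the part free of annotated untranslated sequence. Capitals mark matches on either strand to CACGTG, TATCGATA (known as the DNA replication-related element), GAGAGA (a repeat bound by GAGA factor) or the TATA box letters TATAAA. Of the peaks not printed, those of Rab14, Rab30 and Rab3GAP1 also held a match within 100 bp of the summit, and those of Rab9 and Rab39 held none.

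Rab5, peak of rank 314, chr2L:2363660-2363860: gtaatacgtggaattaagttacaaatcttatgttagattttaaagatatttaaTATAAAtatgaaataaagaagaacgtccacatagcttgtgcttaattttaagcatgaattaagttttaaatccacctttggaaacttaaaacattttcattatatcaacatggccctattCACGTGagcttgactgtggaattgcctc
Rab5, peak of rank 1782, chr2L:2362948-2363148: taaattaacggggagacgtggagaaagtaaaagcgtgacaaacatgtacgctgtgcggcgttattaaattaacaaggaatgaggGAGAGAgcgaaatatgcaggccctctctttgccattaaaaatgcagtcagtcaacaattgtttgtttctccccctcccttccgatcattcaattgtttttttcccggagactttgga
Rab8, peak of rank 795, chr3L:19871079-19871138: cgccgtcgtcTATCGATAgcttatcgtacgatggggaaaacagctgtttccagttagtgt
Rab7, peak of rank 2161, chr3R:23992917-23993007: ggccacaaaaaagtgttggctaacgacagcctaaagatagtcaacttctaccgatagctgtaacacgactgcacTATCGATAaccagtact
Rab11, peak of rank 2392, chr3R:21111193-21111393: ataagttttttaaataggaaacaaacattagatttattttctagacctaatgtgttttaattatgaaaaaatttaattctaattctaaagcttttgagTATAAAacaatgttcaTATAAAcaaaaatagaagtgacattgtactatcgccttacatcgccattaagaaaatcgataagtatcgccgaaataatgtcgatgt
Rab26, peak of rank 729, chr3L:21321985-21322185: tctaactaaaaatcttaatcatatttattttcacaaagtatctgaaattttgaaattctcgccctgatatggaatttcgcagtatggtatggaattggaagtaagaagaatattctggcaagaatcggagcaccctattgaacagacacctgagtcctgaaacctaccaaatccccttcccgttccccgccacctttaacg

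Peaks lay at 10 of the 36 Rab genes, or 27.8%, against 16.1% of all protein-coding genes. They were Rab5, Rab7, Rab8, Rab9, Rab11, Rab14, Rab26, Rab30, Rab39 and Rab3GAP1, so that 9 of the 33 GTPases (27.3%) and 1 of the 3 regulators had one. The members are a chosen list and no set test was made. The count depended on how far from a start site a summit was allowed to lie. Within 200 bp it was 4 of 36, or 11.1%, beside 10.3% of all genes. Within 300 bp it was 7 of 36, or 19.4%, beside 12.4%, and within 500 bp the same 7 stood beside 14.1%. The share at Rab genes was thus near that of all genes for summits within 200 bp of a start site, where it rests on 4 Rab genes.

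**Figure D1:**
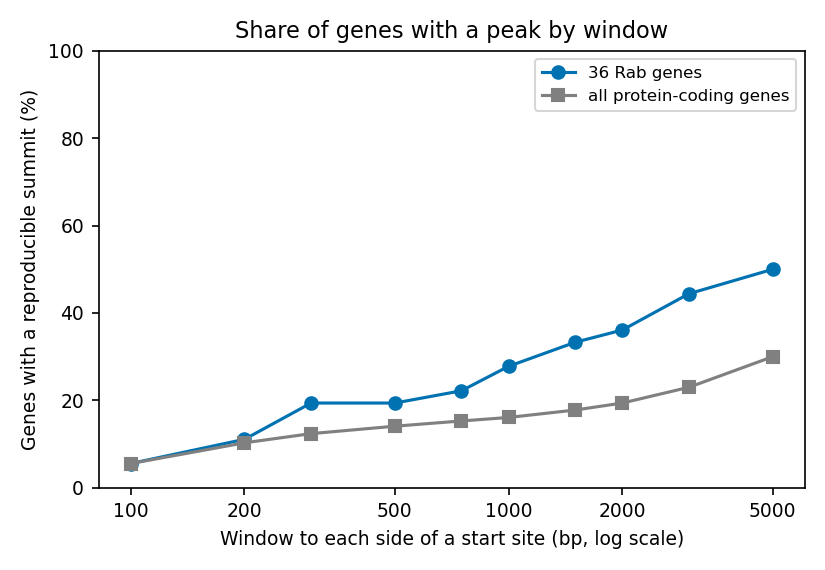
The share of genes holding a reproducible summit is plotted against the distance allowed on either side of a start (log axis) for the 36 Rab genes and for all 13945 protein-coding genes. The shares were both 5.56% at 100 bp and stood at 27.8% and 16.1% at 1000 bp, and at 5000 bp 18 of 36 Rab genes had a summit, beside 30.0% of all genes.

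The strength of each region is the authors' signal value, on a scale set by each library. Levels are therefore compared within a list. The replicates are compared by rank, and by the ratio of their signal values at a peak read against the same ratio over all peaks. In the reproducible list it ran from 72.4 to 1874 with a median of 109. Ranks count from the strongest region of a list. The best peak of the 10 Rab genes had a median rank of 1462, against 1032 over the 2248 protein-coding genes with a peak. For scale, the clock genes timeless (tim) and period (per) had peaks of rank 53 and 188. No Rab peak ranked above 314.

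By role, read beside the 16.1% of all protein-coding genes, endosomal and lysosomal Rabs held 6 of the 10 genes with a peak. In that group of 9 genes a peak lay at Rab5, Rab7, Rab9, Rab11, Rab14 and Rab39, and none at Rab4, Rab21 or Rab35. Exocytic Rabs had a peak in 2 of 5 genes, Rab8 and Rab26. Golgi Rabs had one in 1 of 6, Rab30. The specialised Rabs 23, 32 and 40 had none in 3 genes, and the fly-named Rabs none in 10. Role overlaps with chromosome arm, and 6 of the fly-named Rabs are X-linked. On X, 1 of 14 Rab genes had a peak, beside 10.5% of all genes there. The counts were 5 of 7 on 2L (16.6% of all genes), 0 of 5 on 2R (15.5%), 2 of 5 on 3L (17.6%) and 2 of 5 on 3R (19.0%). These counts rest on the 1 kb rule. Within 500 bp Rab9, Rab14 and Rab30 had no peak, and giving each summit to its nearest start site removed Rab7, Rab30 and Rab39. The groups are small, and their counts were not tested against each other.

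Rab5, which directs fusion and maturation of early endosomes, had the strongest peak and was the only Rab gene with more than 1 peak within 1 kb. The strongest lay in an intron at chr2L:2363550-2363969 with its summit at 2363760, 256 bp upstream of the nearest of the gene's 6 start sites. Its signal was 226 in the reproducible list, 164 in replicate 1 (rank 227) and 66.9 in replicate 2 (rank 467). Its other peak, with a summit at 2363048 and a signal of 88.4, lay 267 bp upstream of another start site. There the replicates ranked the region differently, at 2841 in replicate 1 (signal 43.1) and 917 in replicate 2 (signal 48.7). The ratio of replicate 1 to replicate 2 was 0.884, the lowest of the 11 Rab peaks. No start site of another gene lay within 1 kb of either Rab5 summit.

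Rab7, which directs late endosomes and autophagosomes to fusion with lysosomes, had a weaker peak of rank 2161 on chromosome 3R (23992718 to 23993137, summit 23992928). The signal was 78.2 in the reproducible list, 52.9 in replicate 1 (rank 2049) and 30.0 in replicate 2 (rank 2371). The summit lay 80 bp upstream of Rab7 and 12 bp from the start of the divergent gene Epp, so the peak belongs by position to both. Rab11, which marks recycling endosomes, had the weakest Rab peak, of rank 2392 (chromosome 3R, 21111083 to 21111502, summit 21111293). The summits in replicates 1 and 2 lay 72 and 106 bp upstream of its start. Its signal was 73.7, close to the lowest value on the list. Replicate 1 gave 43.1 (rank 2845) and replicate 2 gave 31.9 (rank 2108), so only in replicate 2 was it among the strongest 2464 candidates.

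Rab9, known in mammalian cells for retrieval from late endosomes to the Golgi, had an intronic peak 991 bp downstream of its start, just inside the 1 kb limit (chromosome 2L, summit 19433565, rank 1693). Replicate 1 gave a signal of 67.5 (rank 1321) and replicate 2 one of 22.7 (rank 3987), a ratio of 2.98, the highest of the Rab peaks. Over the 2398 reproducible peaks with a summit within 150 bp in both replicates the median ratio of replicate 1 to replicate 2 was 1.75, with a 5th percentile of 0.964 and a 95th of 3.34. Rab9 thus lay inside this range, and the weaker Rab5 peak below it. The 11 Rab peaks had ratios from 0.884 to 2.98 with a median of 1.52.

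Rab14, which acts between endosomes and the Golgi, had a peak in an intron (chromosome 2L, summit 14355667, rank 1270), 522 bp downstream of a start site and 582 bp from that of the divergent gene l(2)34Fd. Both replicates gave it nearly the same rank, 1299 (signal 68.3) and 1303 (signal 41.1). Rab39 had a peak of rank 1968 on the X chromosome (7734440 to 7734859, summit 7734650). The signal was 48.4 in replicate 1 (rank 2344) and 35.6 in replicate 2 (rank 1712). This summit lay 273 bp upstream of Rab39 and 1 bp from the start of Pdp, a divergent gene, and by distance it belongs to Pdp rather than to Rab39.

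Among exocytic Rabs, Rab26, a Rab of secretory and synaptic vesicles in mammals, had an intronic peak 296 bp upstream of the nearest of its 3 start sites (chromosome 3L, 21321875 to 21322294, summit 21322085, rank 729). Its signal was 145 in the reproducible list, 86.0 in replicate 1 (rank 869) and 70.6 in replicate 2 (rank 425). Rab8, which carries cargo from the Golgi to the plasma membrane, had the peak closest to its own start, 30 bp upstream (chromosome 3L, 19870898 to 19871317, summit 19871108, rank 795). Its signal was 81.1 in replicate 1 (rank 967) and 57.3 in replicate 2 (rank 635). The start of the divergent gene Usp32, a ubiquitin-specific protease, lay 61 bp from that of Rab8, and the summit fell between the start sites. Rab3, a synaptic vesicle Rab, had no reproducible peak and only weak candidates, of rank 19039 in replicate 1 and 29941 in replicate 2.

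Rab30, a Golgi Rab, had a peak 928 bp upstream of its start and 813 bp from that of the divergent gene Caper, which encodes an RNA-binding protein (chromosome 2L, summit 7033534, rank 1653). The signal there was 59.2 in replicate 1 (rank 1683) and 33.0 in replicate 2 (rank 1971). Replicate 2 also had a stronger candidate 103 bp upstream of Rab30 (signal 42.2, rank 1230). The other Golgi Rabs had candidates only, at pooled ranks of 5055 for Rab18, 6147 for Rab1, 9133 for Rab6 and 10997 for Rab2. Rab1 and Rab2 act in traffic between the endoplasmic reticulum and the Golgi. Rab19 had no pooled candidate within 1 kb, and in replicate 1 only one at rank 14823, 999 bp from a start.

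The Rab3 regulators differed from each other. Rab3GAP1, a subunit of the Rab3 GTPase-activating complex, had a peak 121 bp upstream of its start and 132 bp from that of the divergent gene CG14352 (chromosome 2L, 1611068 to 1611487, summit 1611278, rank 753). Its signal was 83.4 in replicate 1 (rank 921) and 55.0 in replicate 2 (rank 705). Rab3-GAP, the other subunit, had a candidate of rank 6759 in replicate 1 and none in replicate 2. Rab3-GEF, an exchange factor, had candidates at 11639 and 23753.

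**Figure D2:**
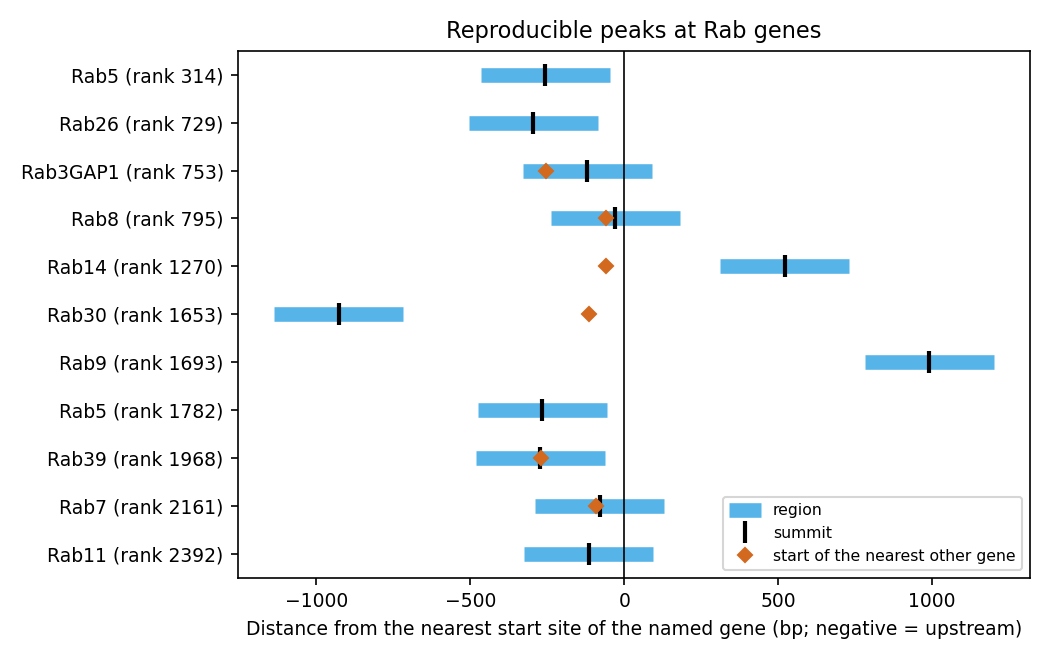
Each row is a reproducible peak of a Rab gene, drawn by distance in bp from the nearest start site of that gene, with the region as a bar, the summit as a black tick and the nearest start of another gene within 1 kb of the summit as a diamond. The peaks of Rab8, Rab7, Rab39 and Rab3GAP1 cover a divergent start, while the summits of Rab14, Rab30 and Rab9 lie over 500 bp from the gene's own start.

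Some Rab genes share their promoter region with a neighbour. A protein-coding gene transcribed the other way, with its start within 1 kb upstream, was found at 19 of the 36, or 52.8%, beside 36.2% of all protein-coding genes. Of these 19, 8 had a peak, or 42.1%, beside 29.1% of all 5052 such protein-coding genes. Of the 17 without one, 2 had a peak, Rab9 and Rab11, or 11.8% beside 8.74% of 8893 genes. Of the 11 Rab peaks 6 had the start of another gene within 1 kb of the summit, and 5 had none, namely both at Rab5 and those at Rab9, Rab11 and Rab26. The same share over all reproducible peaks is not given here, so these 2 counts have no background. Rab5 has a divergent neighbour, Axud1, 72 bp from one of its start sites, but neither Rab5 summit lay within 1 kb of an Axud1 start. Rab26 likewise has the divergent neighbour Pc, 754 bp from one of its start sites, but the Rab26 summit did not lie within 1 kb of a Pc start. Genes with several start sites can gather more summits. Of the 9 Rab genes with more than 1 start site 5 had a peak, and of the 27 with 1 start site 5 had one, beside 27.8% and 11.9% of all such genes.

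Agreement between replicates was read from the candidate lists, each of 30000 regions. Candidates within 1 kb in both replicates were found at 24 of 36 Rab genes, or 66.7%, beside 47.3% of all protein-coding genes. These candidates were matched by gene, and the replicates need not list the same site. Over these 24 genes the best ranks in the replicates had a Spearman rank correlation of 0.897, beside 0.775 over 6602 genes. This is a description across genes, which share 1 pair of libraries, and the ranks compared need not be of the same site. For RabX1 the best candidate lay 987 bp downstream of the start in replicate 1 and 34 bp upstream in replicate 2. Among the strongest 2464 candidates, replicate 1 had one at 10 Rab genes (background 16.1%) and replicate 2 at 10 (background 15.6%). Both replicates had one at 8, or 22.2% beside 12.5% of all genes, and these were the genes with a reproducible peak other than Rab9 and Rab11. With summits of the replicates required within 150 bp of each other, the same 8 remained, beside 12.0% of all genes. Replicate 1 alone added Rab40, where its best candidate had rank 2398 and the best in replicate 2 had rank 8323. Replicate 2 alone added Rab32, where its best candidate had rank 2452 and the best in replicate 1 had rank 5002. At both genes the best candidate lay downstream of a start in replicate 1 and upstream of one, at another site, in replicate 2. These ranks therefore do not compare the replicates at a single site.

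**Figure D3:**
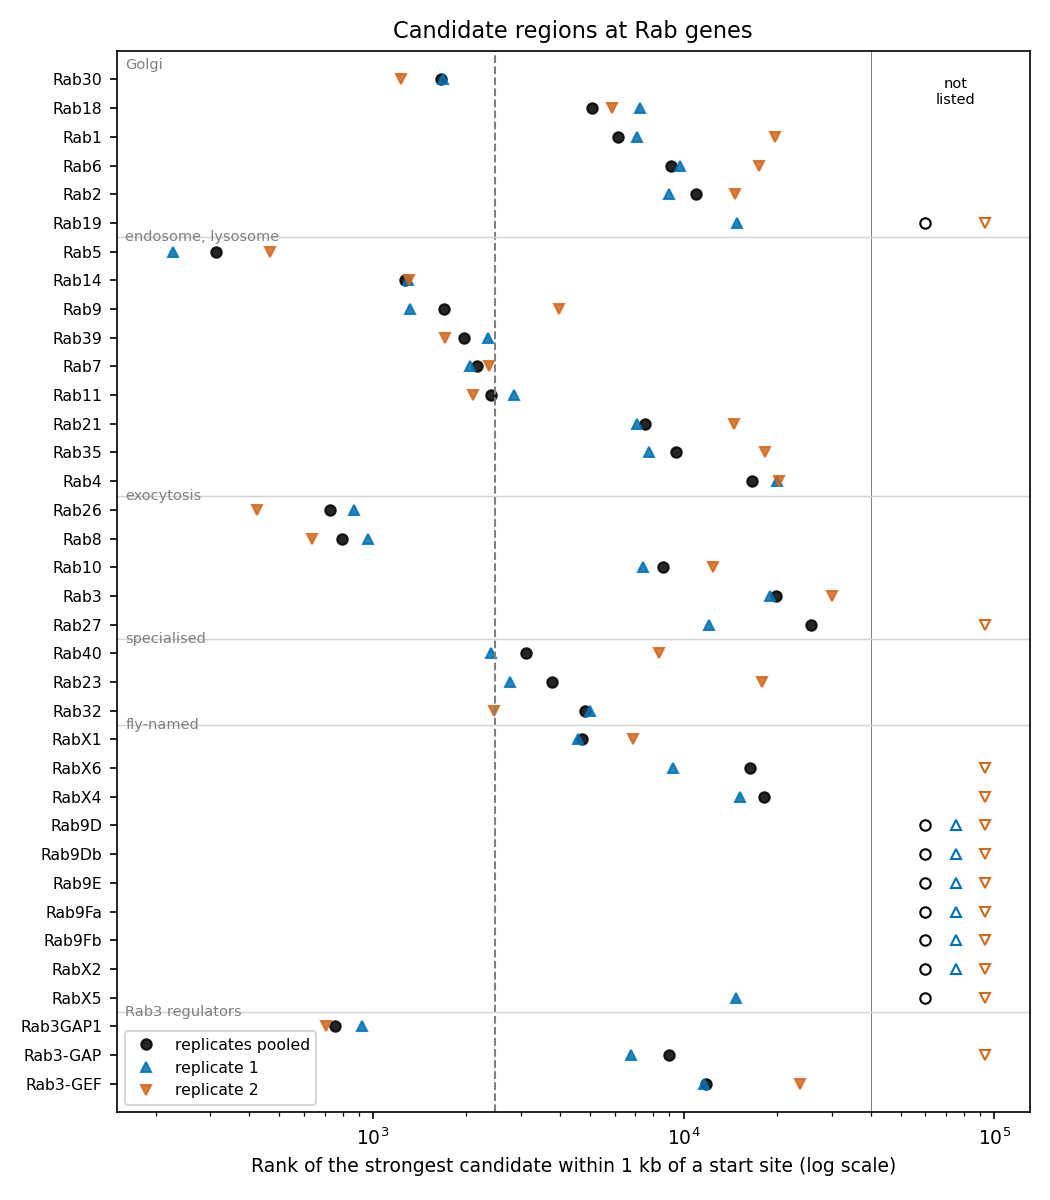
The rank of the strongest candidate within 1 kb of a start site (log axis, strongest to the left) is shown for each Rab gene in the pooled list and in each replicate, with genes grouped by role and open symbols to the right where no candidate was listed. The dashed line stands at rank 2464, the length of the reproducible list. Pooled ranks of 10 genes lie to its left, and 6 fly-named Rabs have open symbols in all 3 lists.

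Pooled candidates of any rank lay within 1 kb of 28 Rab genes, or 77.8%, beside 60.4% of all protein-coding genes, so 18 had a candidate that was not on the reproducible list. The nearest to it were Rab40, which carries a SOCS box of ubiquitin ligases, at pooled rank 3109 with a signal of 62.5, and Rab23, linked to planar polarity in flies, at 3777 with 55.7. Rab23 had rank 2772 in replicate 1 and 17872 in replicate 2. RabX1 followed at 4706 and Rab32, a Rab of eye pigment granules, at 4801. The remaining candidates of GTPases ranked 7531 for Rab21, 8590 for Rab10, 9461 for Rab35, 16328 for RabX6, 16548 for Rab4, 18136 for RabX4, 19812 for Rab3 and 25638 for Rab27. RabX6, RabX4, Rab27 and Rab3-GAP had no candidate within 1 kb in replicate 2. RabX5 had one only in replicate 1, at rank 14745.

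A run of 6 X-linked members, RabX2, Rab9D, Rab9Db, Rab9E, Rab9Fa and Rab9Fb, had no candidate within 1 kb of a start in any list. This was 16.7% of the Rab genes, beside 26.6% of all protein-coding genes with none. They lie between 10417429 and 10952486 on the X chromosome. Their windows are partly repeated in the genome. Of the 36-base words within 1 kb of the start site, 53.5% occurred once in the assembly for Rab9D, 47.8% for Rab9Db, 48.1% for Rab9E, 45.0% for Rab9Fa, 85.5% for RabX2 and 98.1% for Rab9Fb, against 99.7% or more for each of the other 30 Rab genes. How reads from repeated sequence were treated is not given in the sources used here, and its part in the absence of candidates was not tested.

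Away from start sites, 4 further reproducible peaks lay in a Rab gene or within 1 kb of its ends. In Rab32 an intronic peak (rank 1817) lay 1644 bp from the nearest Rab32 start. Past the 3′ end of Rab32, peaks of rank 117 and 1131 lay 174 and 376 bp from a start of Rme-8, an endocytic DnaJ protein gene. Past the 3′ end of RabX5, a peak of rank 141 lay 107 bp from a start of the ribosomal protein gene RpL23A. These 3 are assigned by distance to the neighbouring genes. The peak nearest to Rab1 lay 1089 bp from its start, just outside the limit.

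Sequence motifs at the Rab peaks were counted on both strands up to 100 bp from each summit. CACGTG occurred in 1 of 11 windows, that of the strongest Rab5 peak printed above, at 2363833 to 2363838 and about 75 bp from the summit, beside 3.12% of all 2464 windows. The wider form CANNTG, which includes CACGTG, occurred in 8 of 11 beside 64.3%. TATCGATA occurred in 2 of 11 beside 4.71%, at Rab8 and Rab7, in both cases between the start of the Rab gene and that of its divergent neighbour. GAGAGA occurred in 2 of 11 beside 13.7%, and TATAAA in 4 of 11 beside 31.5%. The G and C content of the Rab windows ran from 25.4% to 42.8% with a median of 37.8%, beside a median of 38.3% over all reproducible peaks. With 11 windows, 1 match more or less is a large change in share.

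In promoters, taken as 250 bases before to 50 after every start site, TATCGATA occurred at 11 of 36 Rab genes beside 10.2% of 13945 protein-coding genes. These were Rab2, Rab6, Rab7, Rab8, Rab14, Rab19, Rab27, Rab30, Rab35, Rab40 and RabX6, of which 4 had a reproducible peak. The share of all genes with TATCGATA in the promoter that had a peak is not given here, so no link between motif and peak is drawn. CACGTG occurred at 1 Rab promoter, that of Rab14, beside 5.30%. GAGAGA occurred at 3 beside 17.1%, and TATAAA at 11 beside 51.2%. CANNTG occurred at 30 beside 81.9%. Shared promoters put some of these matches next to another gene as well, and a match is not a binding site.

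Genes that act on Rabs were counted in the same way, beside the 16.1% of all protein-coding genes. Of 4 genes for escort, extraction and prenylation 3 had a peak: the escort protein gene Rep (rank 840), RabGGTb of the geranylgeranyl transferase (rank 871) and the dissociation inhibitor gene Gdi (rank 1431). Of 16 exchange factor genes 4 had one, led by Mon1 (rank 351, signal 216), whose product activates Rab7 together with Ccz1, and followed by brun, spri and Sbf at ranks 1467, 2197 and 2330. Of 10 genes for GTPase-activating proteins, without the Rab3 pair described above, 4 had one. These were GAPcenA, RN-tre, sky and wkd, at ranks 1079, 1299, 1343 and 1754. Not all summits lay close to a start site. Those of Rep, RabGGTb and Gdi lay at 18, 814 and 64 bp. Those of GAPcenA, RN-tre, sky and wkd lay at 298, 48, 662 and 597 bp. Starts of neighbouring genes are not given for these lists. Of 32 effector and tether genes 9 had one. The highest ranked were Rbsn-5, a Rab5 effector, at 502, GCC185, a golgin, at 575, didum, the myosin V that works with Rab11, at 791, and Mical at 1177. Sec15, an exocyst subunit that binds Rab11, had one of rank 1578, 418 bp from its start.

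Other small GTPase families had peaks in 3 of 12 genes for the Arf, Arl and Sar family and 4 of 15 for Ras and its relatives, beside 9 of 33 Rab GTPases. Arl1, an Arf-like Golgi GTPase, had a peak of rank 21 (signal 663), above that of Rab5. Its summit lay 126 bp from an Arl1 start. Starts of neighbouring genes are not given for these families either, so a peak may also lie near another gene. The other peaks of these families ranked below that of Rab5. Arl5 stood at 986, Rheb at 1385, Rap1 at 1447, Rap2l at 1700, Sar1 at 1946 and RagA-B at 2326. Differences in share between these families and the Rab GTPases were not tested.

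**Figure D4:**
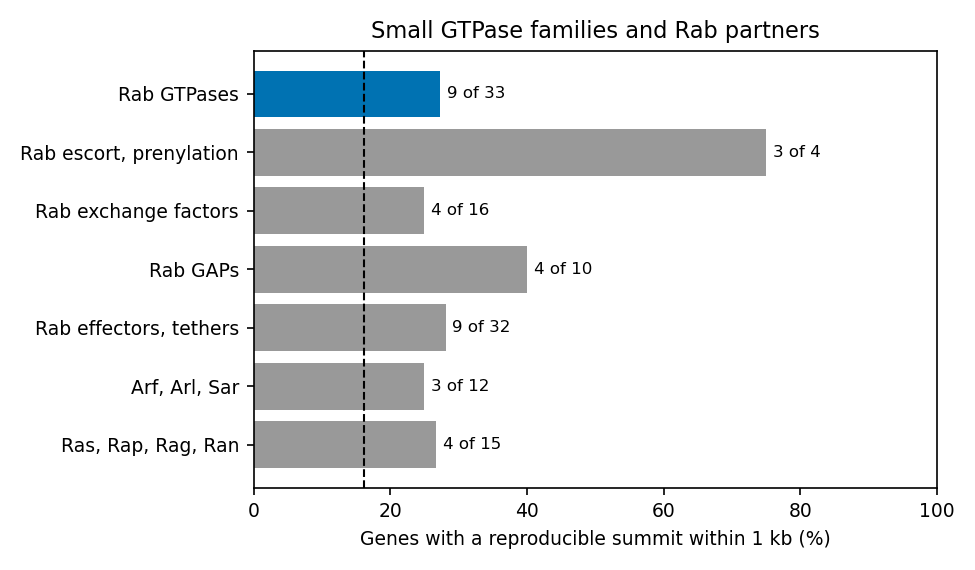
Bars give, as a percentage, the genes that had a reproducible peak at a start site (1 kb limit) for Rab GTPases, Rab partners and other small GTPases, with counts beside each bar. The dashed line is the 16.1% of all protein-coding genes. The 9 of 33 Rab GTPases stand at 27.3%, and the longest bar, 3 of 4, rests on few genes.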

How the data were processed

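Per the labels, the data were ChIP-seq (antibody anti-GFP in the descriptions, Clk in the antibody label) of 2 biological replicates of 1 group. The notes deposited with the lists state that candidates came from either replicate or both pooled, each against a control alignment, and that the authors derived the IDR-thresholded list from these, on dm6. Aligner, peak caller, IDR threshold and read depth were not given in those sources. The deposited score is the peak caller's signal value. It was compared within a list, or between replicates as a ratio read against that of all peaks. Equal-signal regions were ordered by position. No region among 92464 ran past a chromosome end. The reproducible list equals the strongest 2464 pooled candidates. The dm3 lists were not used.

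Each transcript of Ensembl release 115 (BDGP6.54) gave 1 start site, its 5′ end. Genes on the Y chromosome and unplaced sequence were left out. Summit assignment was tested on simulated data. Members and gene lists were chosen with earlier results of these data known. All members with a peak were to be given in full, other members by candidate rank, and up to 4 genes of each other list. After values were seen, Sec15 was also named, Rab9Db was added to the fly-named group, Tusp and pns were dropped from the partner lists as their role was not certain, and 36-base words were counted, a length not taken from the reads. Symbols not in the annotation were dropped. Results of 1 gene list are not reported here, and not every peak sequence is printed. Alternatives changed the window, gene assignment, threshold, overlap rule, replicates, member set and motif window. Tools were pysam 0.24.0, pandas 2.3.3, matplotlib 3.10.9, NumPy 2.4.6, SciPy 1.17.1 and Python 3.11.15.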

Additional observations from a re-analysis of the deposited data

How the results depend on the processing

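The count of 10 Rab genes with a reproducible peak became 18 with a 5 kb window (30.0% of all genes) and 4 with the stronger 1232 peaks (9.31% of all genes), which were Rab5, Rab8, Rab26 and Rab3GAP1. It was 7 with a 500 bp window (14.1%), 7 with each summit given to its nearest start site (12.6% of all genes), 8 with a summit among the strongest of both replicates (12.0%), 9 without the 3 Rab3 regulators (16.1%), 11 by region overlap (16.8%) and 13 with a 2 kb window (19.4%). Leaving out either replicate gave 10, with Rab32 in place of Rab9 without replicate 1 (15.6%) and Rab40 in place of Rab11 without replicate 2 (16.1%). The nearest start site rule removed Rab7, Rab30 and Rab39. The count of 28 genes with a pooled candidate was 24 without replicate 1 (59.3% of all genes), 30 without replicate 2 (60.0%), 26 with a 500 bp window (50.1%) and 23 with the stronger 15000 candidates (45.4%). The count of 8 genes with a strong candidate in both replicates was 4 with the strongest 1000 of each (6.02%), 10 with the strongest 5000 (19.8%) and 6 with a 500 bp window (10.9%). With 50 bp to each side of the summit, CACGTG was in 0 of 11 windows (1.34% of all reproducible peaks), TATCGATA in 1 (2.23%), GAGAGA in 1 (5.97%), TATAAA in 3 (17.4%) and CANNTG in 6 (38.5%). Narrower windows, longer distances and fewer regions change these counts by construction. No paired analysis was possible because the series has 1 group. Read depth is unknown, and candidates below rank 30000 are not on the lists used.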
